A study of Mus musculus with 8 samples.

Results

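The core autophagy and TFEB machinery comprises 35 genes, chosen by name as the conserved genes that start, build, load and fuse an autophagosome together with the transcription factors *Tfeb* and *Tfe3*. Every one of the 35 symbols was found once among the 28712 genes of the tables, and all 35 were among the 13877 genes tested. They were followed in 4T1 cells, a mouse mammary tumor line often used as a model of triple-negative breast cancer, after addition of sdAb#07.81, a single-domain antibody selected against the stress-induced chromatin protein NUPR1. The 6 libraries used came from 3 groups of 2, namely cells given the control antibody for 48 h, called sdAb-Con (48 h), and cells given the NUPR1 antibody for either time, called sdAb#07.81 (48 h) or sdAb#07.81 (24 h). An untreated Con group of 2 samples was not analysed here. Each antibody was given at 0.5 µg/mL to post-confluent cells, carried the degron of ornithine decarboxylase (cOdc1), which directs a bound protein to degradation, with a cell-penetrating Tat peptide and Flag and His tags, and was made in a human cell line. All 3 groups, the control antibody included, were kept in RPMI 1640 with 1% O2 and 5% CO2, so no group shows the cells in ordinary oxygen. sdAb-Con was sequenced at 48 h, and at 24 h there was no matching control antibody, so time in culture and time with sdAb#07.81 cannot be told apart in the second comparison.

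Autophagy encloses cytoplasm in a double membrane and delivers it to the lysosome. The ULK1 complex starts the process, the class III phosphatidylinositol 3-kinase (PI3K) complex marks the site with the lipid PI3P, and WIPI proteins that bind this lipid, with the lipid transporters ATG2A and ATG2B and the scramblase ATG9A, expand the membrane. Ubiquitin-like reactions that join ATG12 to ATG5 and the ATG8 proteins to phosphatidylethanolamine load the membrane, and a SNARE bundle then fuses it with the lysosome. TFEB and TFE3 are transcription factors that leave the cytoplasm when mTORC1 signalling falls and switch on lysosomal and autophagy genes. In tumor cells the pathway is known as a means of surviving hypoxia and starvation, and much of its control lies in phosphorylation, which RNA levels do not show.

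The 2 tables list no value for a single library. Each gives the mean over 4 libraries of counts divided by size factors, printed to 15 significant digits, and the whole-number counts behind these means were solved for 99.7% of the genes. The 2 libraries of a group are called A and B, and these letters carry no replicate number of the labels. Levels are in CPM, the counts of a library per 1000000 reads of its scaled size. That size is the library's size factor (median of ratios) times the geometric mean of the libraries' total counts of solved genes. A fold change is on the log2 scale with its standard error (SE), and adjusted p-values are Benjamini-Hochberg values of limma's two-sided test over the 13877 genes with a mean count of at least 10. A gene was called at an adjusted p under 0.05. No source states that the libraries of a group came from separate cultures, so the p-values measure the spread between these libraries, which may be technical.

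The libraries held 13461950 to 16478991 counts of solved genes, and the member counts ran from 48 for *Atg10* to 3336 for *Wipi2*. The median SE over all genes was 0.153 in the comparison of antibodies and 0.152 in that of times, and the libraries of a group differed by far more than counting noise, with a chi-square over its degrees of freedom of 8.9 to 11.5. The epithelial genes *Krt8*, *Krt18*, *Krt7*, *Epcam* and *Cdh1* summed to 2982 to 3697 CPM, which fits the mammary epithelial label. The immune markers *Ptprc*, *Cd3e*, *Lyz2*, *Adgre1* and *Csf1r* summed to at most 0.813 CPM, and the 4 endothelial markers summed to at most 0.93 CPM. The 5 fibroblast markers summed to 64 to 94.3 CPM, most of it *Pdgfra*. Library B of sdAb#07.81 (24 h) stood apart in the others. *Col1a1*, *Col1a2*, *Dcn* and *Lum* together had 3.29 CPM there, against 21.7 to 29.8 CPM in the other 5 libraries. Results against 24 h are therefore also given without this library. *Pdgfra* was highest in that library, at 84.2 CPM against 41.2 to 64.6 CPM in the others. *Nupr1*, which encodes the antibody's target, stood at 242 and 203 CPM in sdAb-Con (48 h), 197 and 197 CPM in sdAb#07.81 (48 h), and 105 and 144 CPM in sdAb#07.81 (24 h). Its log2 fold change was -0.17 (SE 0.132, limma adjusted p = 0.453) between the antibodies and 0.68 (SE 0.134, limma adjusted p = 0.00046) between the times. The antibody acts on the protein, which these RNA data do not measure.

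Promoters of the members were read from RefSeq for mouse build GRCm38.p6, which had an entry for 28 of the 35 genes, and were searched on both strands over 300 bases, from 250 before to 50 after the start. TFEB is known to bind the CLEAR element, written here as TCACGTGA, whose core is the E-box CACGTG. The 28 genes had 33 promoters. CLEAR was found in 1 of the 33, belonging to *Atg3*, and in 0.974% of all 32851 promoters. The E-box, which every CLEAR element also contains, was found in *Atg3*, *Atg5*, *Atg7* and *Atg14*, or 4 of the 33 promoters, and in 7.15% of all promoters. The cAMP response element TGACGTCA was found in *Atg5* and *Atg16l2*, or 2 of the 33 promoters, and in 1.79% of all promoters. The CHOP-ATF4 element TGATGNAA was found in 0 of the 33 promoters and in 3.97% of all promoters. A match describes letters and not binding. The 250 bases before the start are shown for *Atg3*, the holder of the CLEAR element, for *Atg5*, the conjugation gene with an E-box that also passed the test between the times, and for *Atg13*, which had the smallest adjusted p of the members between the times and held none of these elements. Capitals mark CLEAR elements and E-boxes. In *Atg3* the CLEAR element began 72 bases before the start and an E-box upstream of it 94 bases before. In *Atg5* the E-box began 14 bases before the start, and the cAMP response element, at 1 base before the start, runs past the stretch shown.
Atg3, chr16:45158579-45158828, plus strand: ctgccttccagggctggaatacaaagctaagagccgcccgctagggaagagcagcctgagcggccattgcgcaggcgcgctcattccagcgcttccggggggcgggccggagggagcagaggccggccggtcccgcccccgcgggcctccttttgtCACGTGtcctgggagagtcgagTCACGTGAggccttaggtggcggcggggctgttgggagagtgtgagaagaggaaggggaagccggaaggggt
Atg5, chr10:44268089-44268338, plus strand: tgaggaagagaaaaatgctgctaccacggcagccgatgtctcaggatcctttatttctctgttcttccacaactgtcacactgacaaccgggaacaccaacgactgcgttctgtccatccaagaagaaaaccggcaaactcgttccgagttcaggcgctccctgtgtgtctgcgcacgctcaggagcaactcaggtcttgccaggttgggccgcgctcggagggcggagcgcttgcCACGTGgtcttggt
Atg13, chr2:91710593-91710842, minus strand: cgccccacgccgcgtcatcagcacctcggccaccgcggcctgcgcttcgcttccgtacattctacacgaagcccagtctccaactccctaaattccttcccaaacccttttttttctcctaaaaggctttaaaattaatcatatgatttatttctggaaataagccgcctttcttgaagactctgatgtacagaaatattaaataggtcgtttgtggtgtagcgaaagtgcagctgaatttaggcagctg

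Divided by exonic length, the members were expressed at a median of 8.54 CPM per kb, against 7.19 CPM per kb for all genes tested. Of the 35 genes, 21 lay at or above that median, 5 above the upper quartile of 18.1 and 1 below the lower quartile of 2.28. The highest were *Atg5*, the acceptor of ATG12, at 24.8 CPM per kb, the PI3P-binding *Wipi1* at 21.9 and *Wdr45b* at 21.1, and the lysosomal SNARE *Vamp8* at 21.8. The lowest was *Tfeb* at 1.63 CPM per kb, and *Tfe3* stood at 7.95 CPM per kb. Among the ATG4 proteases, which trim the ATG8 proteins and also release them from membranes, the level per length ran from *Atg4c* at 9.79 and *Atg4b* at 8.2 to *Atg4a* at 5.98 and *Atg4d* at 2.75 CPM per kb. *Atg16l1*, the scaffold of the conjugation complex, was at 3.63 CPM per kb and its paralog *Atg16l2* at 2.28. In each of the 6 groupings by step the levels spanned the median of all genes tested.

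**Figure D1:**
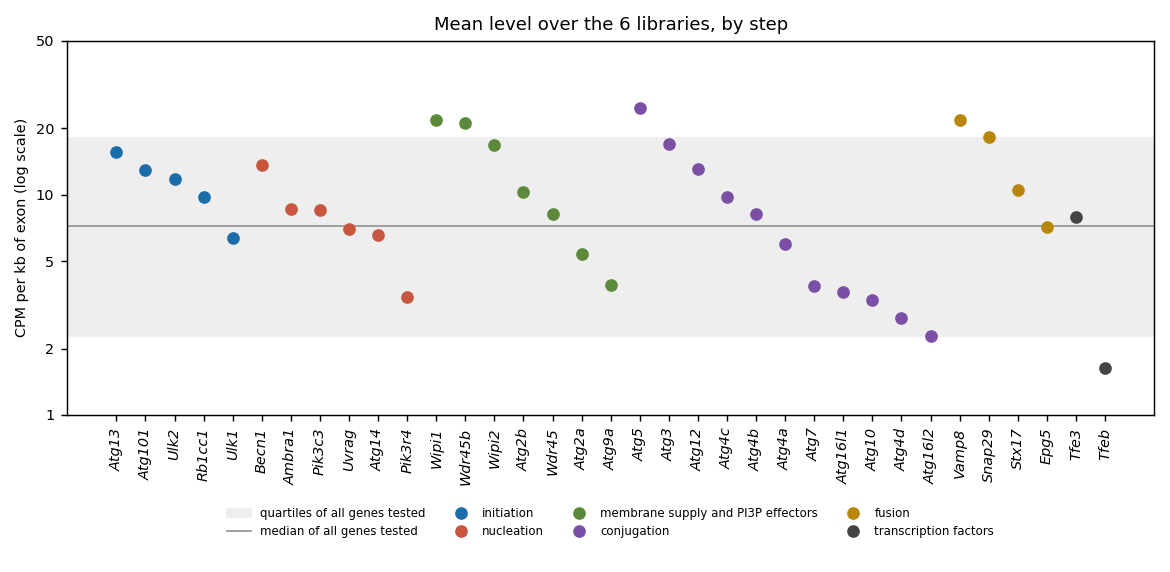
Mean level over the 6 libraries, in CPM per kb of exon on a log axis, for each of the 35 genes ordered by step; the grey band spans the quartiles of all genes tested and the line is their median. Most points lie inside the band, with *Atg5*, *Wipi1*, *Vamp8*, *Wdr45b* and *Snap29* above it and *Tfeb* below.

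The first comparison, sdAb#07.81 (48 h) against sdAb-Con (48 h), asks how the machinery differed between the NUPR1 antibody and a control antibody at the same time. In RNA of whole cultures, fewer cells using a gene and less RNA of it per cell cannot be told apart. One gene, *Rb1cc1* of the initiation step, was called higher, and the other 34 were not called in either direction. That is 2.86% of the members, against 9.89% of all genes tested, where 6.37% were called higher and 3.52% lower. Libraries of the 2 groups did not overlap for 21 of the 35 members, and for 58.7% of all genes tested. The median log2 fold change of the members was -0.04, beside -0.02 for all genes, and became 0.02 beside 0.03 when libraries were scaled by their upper quartile. With that scaling the split of all calls moved from 64.4% to 79.4% higher.

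*Rb1cc1* encodes FIP200, the long scaffold of the ULK1 complex. In the tables it is ENSMUSG00000025907, chromosome 1, 6276421 to 6346872 on the plus strand, with no genome build named. It stood at 121 and 104 CPM in the libraries of sdAb-Con (48 h), at 170 and 155 CPM in sdAb#07.81 (48 h), and at 150 and 163 CPM in sdAb#07.81 (24 h). The sdAb-Con libraries were the lowest of the 6, and both sdAb#07.81 groups overlapped each other. The log2 fold change was 0.54 (SE 0.115, limma adjusted p = 0.00669), or 1.45-fold. Without library B of sdAb-Con (48 h) it was 0.43 (adjusted p = 0.11), and without library A of sdAb#07.81 (48 h) it was 0.46 (adjusted p = 0.14), so neither fit called it. With the trend in transcript length, GC content and level removed, it was 0.18 (limma adjusted p = 0.502).

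Fold changes in this comparison rose with transcript length across genes. Spearman's rho between the log2 fold change and the longest transcript was 0.446 across 13717 genes, a description across genes that share the same libraries. The median log2 fold change went from -0.27 in the decile of genes with the shortest transcripts to 0.32 in the decile with the longest. Deviations from the gene means fell with length in both sdAb-Con (48 h) libraries (rho -0.414 and -0.386) and rose with it in both 24 h libraries (0.218 and 0.262). In sdAb#07.81 (48 h) the values differed between library A at 0.252 and library B at -0.0869. The *Rb1cc1* transcript is 7.61 kb long, and the fitted trend for a gene of its length, GC content and level was 0.36. Of the members, 26 had a transcript longer than the median tested gene. Against 24 h the rho was -0.126, and the median went from 0.19 in the shortest decile to -0.13 in the longest.

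**Figure D2:**
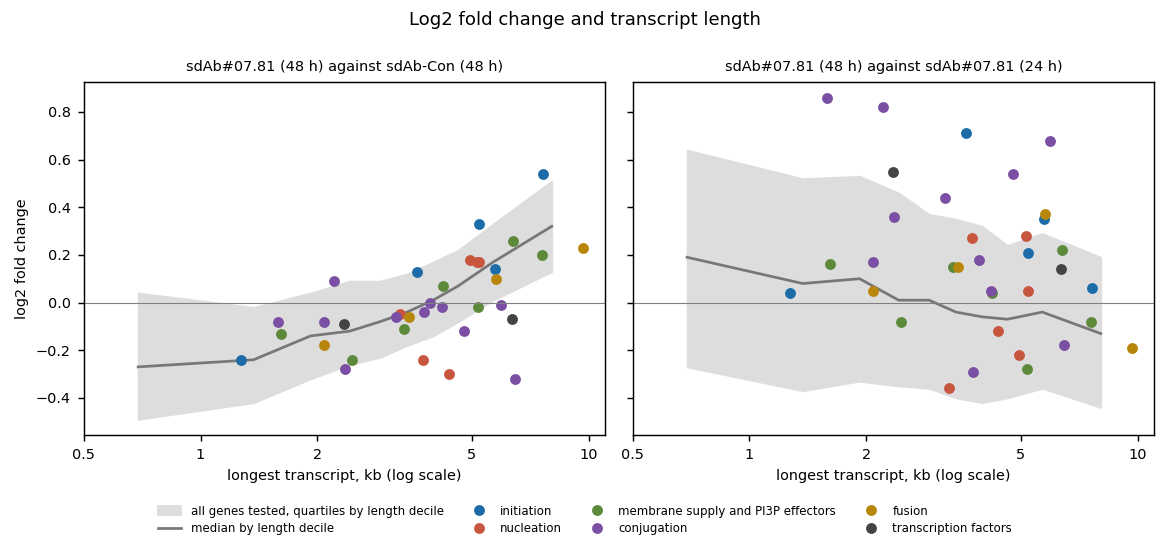
Log2 fold change of the 35 genes (points, coloured by step) against the length of the longest transcript in kb on a log axis, in each comparison; the grey line and band are the median and quartiles of all genes tested by deciles of length. On the left the points climb with length as the band does, *Rb1cc1* lying at 0.54 beside a median of 0.32 for the longest genes; on the right the median falls from 0.19 to -0.13 and several conjugation genes lie above the band.

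None of the other initiation genes was called against sdAb-Con (48 h). *Ulk1*, the kinase of the complex, had a log2 fold change of 0.33 (95% interval 0.05 to 0.61, limma adjusted p = 0.124), its paralog *Ulk2* 0.14, the regulatory subunit *Atg13* 0.13 and its partner *Atg101* -0.24. In the nucleation step *Becn1*, the regulatory subunit Beclin 1, came closest to a call at -0.30 (SE 0.114, limma adjusted p = 0.0929), with 107 and 109 CPM in sdAb-Con (48 h) against 81.9 and 93.5 CPM in sdAb#07.81 (48 h). The lipid kinase *Pik3c3* had -0.05, its partner kinase *Pik3r4* 0.18, the autophagy-specific subunit *Atg14* -0.24, the endosomal subunit *Uvrag* 0.17 and the Beclin 1 regulator *Ambra1* 0.17. Membrane supply genes ran from -0.24 for *Wdr45b* to 0.26 for *Atg2a*, with *Atg2b* at 0.20, *Atg9a* at 0.07, *Wipi1* at -0.11, *Wipi2* at -0.02 and *Wdr45* at -0.13.

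The conjugation genes ran from -0.32 for *Atg16l2* to 0.09 for *Atg4a*. None was called. *Atg5* was at -0.28 (95% interval -0.54 to -0.03, limma adjusted p = 0.144), with 73.8 and 68.6 CPM against 55 and 62.2 CPM. Of the enzymes, the E1-like *Atg7* had -0.00, the E2-like *Atg3* and *Atg10* -0.08 each, and the proteases *Atg4b*, *Atg4c* and *Atg4d* -0.02, -0.06 and -0.01. The ubiquitin-like *Atg12* had -0.12 and *Atg16l1* -0.04. In fusion the SNARE genes *Stx17*, *Snap29* and *Vamp8* had 0.10, -0.06 and -0.18, and the tether *Epg5* had 0.23. *Tfeb* was at -0.09 (95% interval -0.49 to 0.32) and *Tfe3* at -0.07 (95% interval -0.31 to 0.17). Over the 34 genes not called the 95% intervals lay between -0.65 and 0.61. The intervals of *Ulk1*, *Becn1* and *Atg5* were wholly positive or wholly negative.

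**Figure D3:**
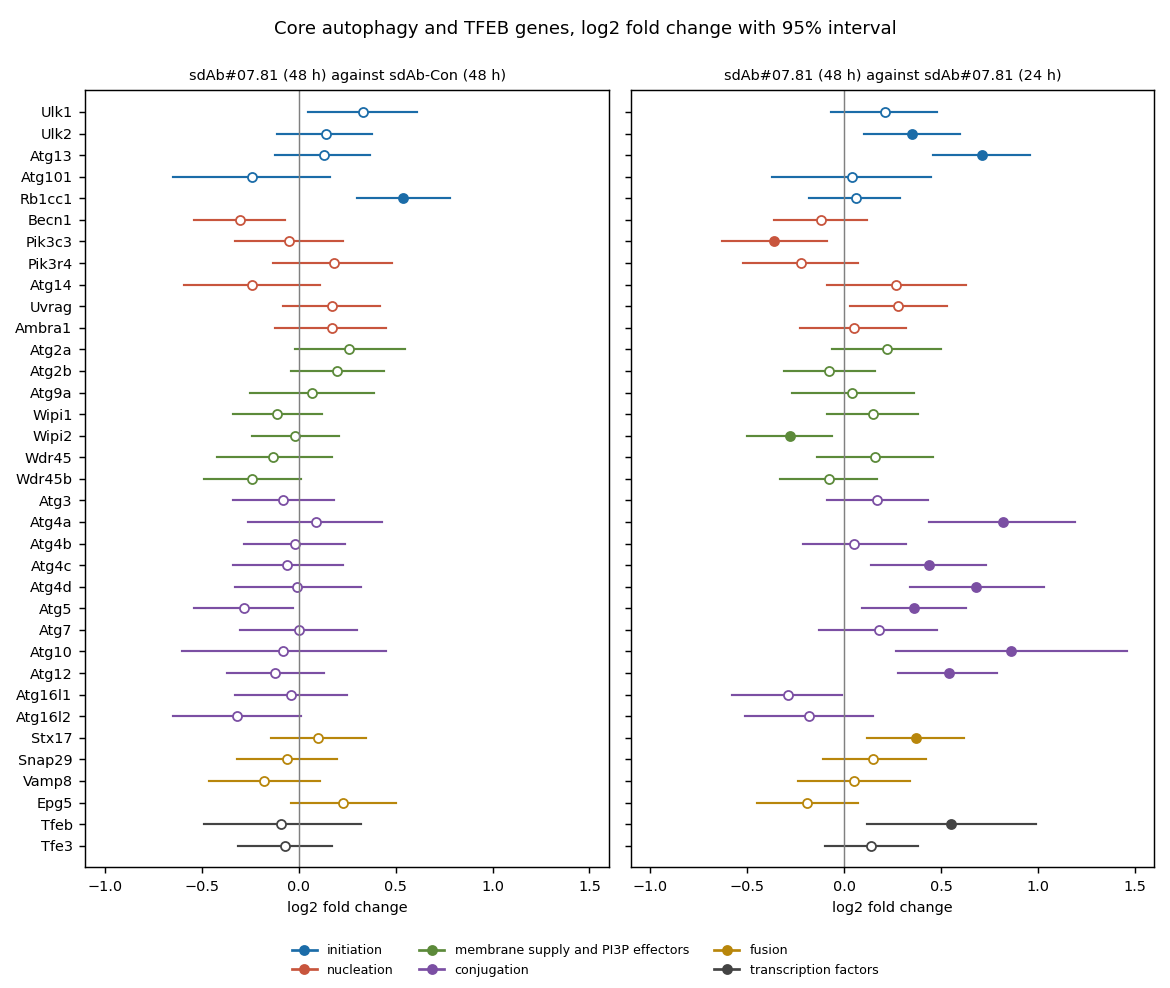
Log2 fold change with its 95% interval for each of the 35 genes, coloured by step, in both comparisons; filled points have an adjusted p under 0.05. On the left *Rb1cc1* at 0.54 is the single filled point, and on the right 12 points are filled, 10 of them above 0 and 6 of these in the conjugation step.

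The second comparison, sdAb#07.81 (48 h) against sdAb#07.81 (24 h), asks how the machinery differed between the times under the same antibody. It shares the sdAb#07.81 (48 h) libraries with the first, so the comparisons are not independent. Of the 35 genes, 12 were called, 10 higher at 48 h and 2 lower. That is 34.3% of the members, against 43.1% of all genes tested, where 21% were called higher and 22.1% lower. Libraries of the 2 times did not overlap for 25 of the 35 members and for 71.2% of all genes. The median log2 fold change of the members was 0.15 beside -0.01 for all genes, and lay between 0.14 and 0.18 with the other scalings. Without library B of sdAb#07.81 (24 h), the library with few collagen counts, that median was 0.11, and *Atg5* lost its call at 0.28. Without library A of that group the median was 0.17, and without library A or B of sdAb#07.81 (48 h) it was 0.16 or 0.13. In each of these fits fewer members were called, and fewer of all genes as well.

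In the initiation step *Atg13* and *Ulk2* were called higher, 2 of 5 genes (40%), beside 43.1% of all genes called and 21% called higher. *Atg13* (ENSMUSG00000027244, chromosome 2, 91504963 to 91540921, minus strand) encodes a regulatory subunit of the ULK1 complex that mTORC1 phosphorylates. It stood at 52.6 and 46.2 CPM at 24 h and at 81.4 and 79.8 CPM at 48 h, and sdAb-Con (48 h) lay between, at 72.8 and 74.8 CPM. Its log2 fold change was 0.71 (SE 0.12, limma adjusted p = 0.000114), or 1.63-fold. *Ulk2* had 0.35 (SE 0.119, limma adjusted p = 0.0232), with 57.7 and 66.2 CPM at 24 h and 79.3 and 78.1 CPM at 48 h, and lost its call in 4 of 13 alternative fits (0.25 and adjusted p = 0.171 without library A of the 24 h group). The remaining subunits were not called, *Ulk1* at 0.21, *Rb1cc1* at 0.06 (95% interval -0.18 to 0.29) and *Atg101* at 0.04. With the trend removed *Ulk1* was called, at 0.35 (limma adjusted p = 0.0431).

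Among the genes of the lipid kinase and its readers the calls were lower at 48 h, 1 of 6 genes in nucleation (16.7%) and 1 of 7 in membrane supply (14.3%), beside 43.1% of all genes called and 22.1% called lower. *Pik3c3*, the catalytic subunit VPS34, had a log2 fold change of -0.36 (SE 0.129, limma adjusted p = 0.0321), from 45.4 and 43 CPM at 24 h to 35 and 34 CPM. *Wipi2*, which binds PI3P and recruits ATG16L1, had -0.28 (SE 0.106, limma adjusted p = 0.0413), from 207 and 193 CPM to 167 and 163 CPM. sdAb-Con (48 h) was at 36.5 and 35 CPM for *Pik3c3* and at 162 and 172 CPM for *Wipi2*. *Pik3c3* lost its call in 5 and *Wipi2* in 9 of 13 alternative fits, both with total count scaling (adjusted p = 0.0539 and 0.066), and *Wipi2* also with the length, GC and level trend removed (-0.19, adjusted p = 0.164). The calls in these steps changed with the setting. *Uvrag* alone was called, higher, with total count scaling. With the trend removed *Uvrag* (0.38, limma adjusted p = 0.0147) and *Atg2a* (0.39, limma adjusted p = 0.024) were called higher and *Pik3c3* lower (-0.33, limma adjusted p = 0.0491). Without library A of the 24 h group *Atg14* was the single call. The other nucleation genes ran from -0.22 for *Pik3r4* to 0.28 for *Uvrag*, with *Becn1* at -0.12, *Ambra1* at 0.05 and *Atg14* at 0.27. Of the membrane supply genes *Atg2a* had 0.22, *Atg2b* -0.08, *Atg9a* 0.04, *Wipi1* 0.15, *Wdr45* 0.16 and *Wdr45b* -0.08.

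Conjugation held the most calls, 6 of 11 genes or 54.5%, beside 43.1% of all genes, and all were higher at 48 h. *Atg12*, *Atg4a* and *Atg4d* kept their calls without library B of sdAb#07.81 (48 h) and without library A of the 24 h group. In both fits the share of conjugation genes called was not above that of all genes. Over the alternative fits the values of *Atg10*, *Atg4c* and *Atg5* went down to 0.59, 0.33 and 0.27. *Atg10* (ENSMUSG00000021619, chromosome 13, 91083475 to 91372087, minus strand) encodes the E2-like enzyme that passes ATG12 to ATG5. It rose from 2.98 and 4.33 CPM at 24 h to 6.48 and 6.58 CPM at 48 h, a log2 fold change of 0.86 (SE 0.283, limma adjusted p = 0.0192). It lost its call in 4 of 12 alternative fits, with 0.59 (adjusted p = 0.144) without library A of the 24 h group. Its counts at 24 h were 48 and 67 reads, the lowest of the members, and sdAb-Con (48 h) spread from 5.57 to 8.42 CPM. *Atg4a* (ENSMUSG00000079418, chromosome X, 139857656 to 139947266, plus strand), a protease with a preference for the GABARAP branch of the ATG8 family, went from 11.3 and 10.3 CPM to 18.3 and 19.7 CPM. Its log2 fold change was 0.82 (SE 0.179, limma adjusted p = 0.00119), and sdAb-Con (48 h) stood at 19.9 and 16 CPM. For both genes all 4 libraries at 48 h lay above both libraries at 24 h.

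*Atg4d* (ENSMUSG00000002820, chromosome 9, 21176589 to 21189068, plus strand), another ATG4 protease, went from 13.5 and 14.8 CPM at 24 h to 22.8 and 22.6 CPM at 48 h. The log2 fold change was 0.68 (SE 0.165, limma adjusted p = 0.00259), and sdAb-Con (48 h) was at 20.8 and 25.2 CPM. *Atg12* (ENSMUSG00000032905), the ubiquitin-like protein itself, went from 82.4 and 68.2 CPM to 105 and 113 CPM, a log2 fold change of 0.54 (SE 0.124, limma adjusted p = 0.00178). In sdAb-Con (48 h) *Atg12* stood at 126 and 111 CPM, again above both libraries at 24 h. *Atg4c* and *Atg5* were called with smaller values, 0.44 (SE 0.14, limma adjusted p = 0.0167) and 0.36 (SE 0.128, limma adjusted p = 0.0291). Each lost its call in 3 of 13 alternative fits, among them that without library B of sdAb#07.81 (48 h), with adjusted p = 0.113 and 0.225. For *Atg5* the order of the groups was 24 h at 47.9 and 43.3 CPM, sdAb#07.81 (48 h) at 55 and 62.2 CPM and sdAb-Con (48 h) at 73.8 and 68.6 CPM, with no overlap between neighbours.

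The conjugation genes not called were *Atg3* at 0.17, *Atg4b* at 0.05, *Atg7* at 0.18, *Atg16l1* at -0.29 (95% interval -0.58 to -0.01, limma adjusted p = 0.0851) and *Atg16l2* at -0.18. *Atg4b*, the most broadly acting of the ATG4 proteases, had a 95% interval of -0.21 to 0.32. In the ATG12 branch *Atg12*, *Atg10* and *Atg5* were called, and the shared E1 *Atg7* and the ATG8-specific E2 *Atg3*, holder of the CLEAR element shown above, were not.

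In fusion *Stx17*, the SNARE of the completed autophagosome, was called at 0.37 (SE 0.119, limma adjusted p = 0.0176), with 52.3 and 55.1 CPM at 24 h and 70.4 and 68.3 CPM at 48 h, and lost its call in 3 of 13 alternative fits (adjusted p of up to 0.0987). *Snap29* at 0.15, *Vamp8* at 0.05 and *Epg5* at -0.19 were not, so the step held 1 call in 4 genes (25%), beside 43.1% of all genes. *Tfeb* (ENSMUSG00000023990, chromosome 17, 48047955 to 48103344, plus strand) stood at 6.26 and 7.55 CPM at 24 h, 10.6 and 9.54 CPM in sdAb#07.81 (48 h), and 10.5 and 11 CPM in sdAb-Con (48 h). Its log2 fold change was 0.55 (SE 0.207, limma adjusted p = 0.0379), and it was no longer called in 6 of 13 alternative fits, with an adjusted p of up to 0.199. *Tfe3* stood at 66.9 and 68.6 CPM at 24 h and 77.6 and 71.9 CPM at 48 h, and its log2 fold change of 0.14 (95% interval -0.10 to 0.38) was not called. Over the 23 genes not called the 95% intervals lay between -0.58 and 0.63. The intervals of *Uvrag* and *Atg16l1* were wholly positive or wholly negative.

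**Figure D4:**
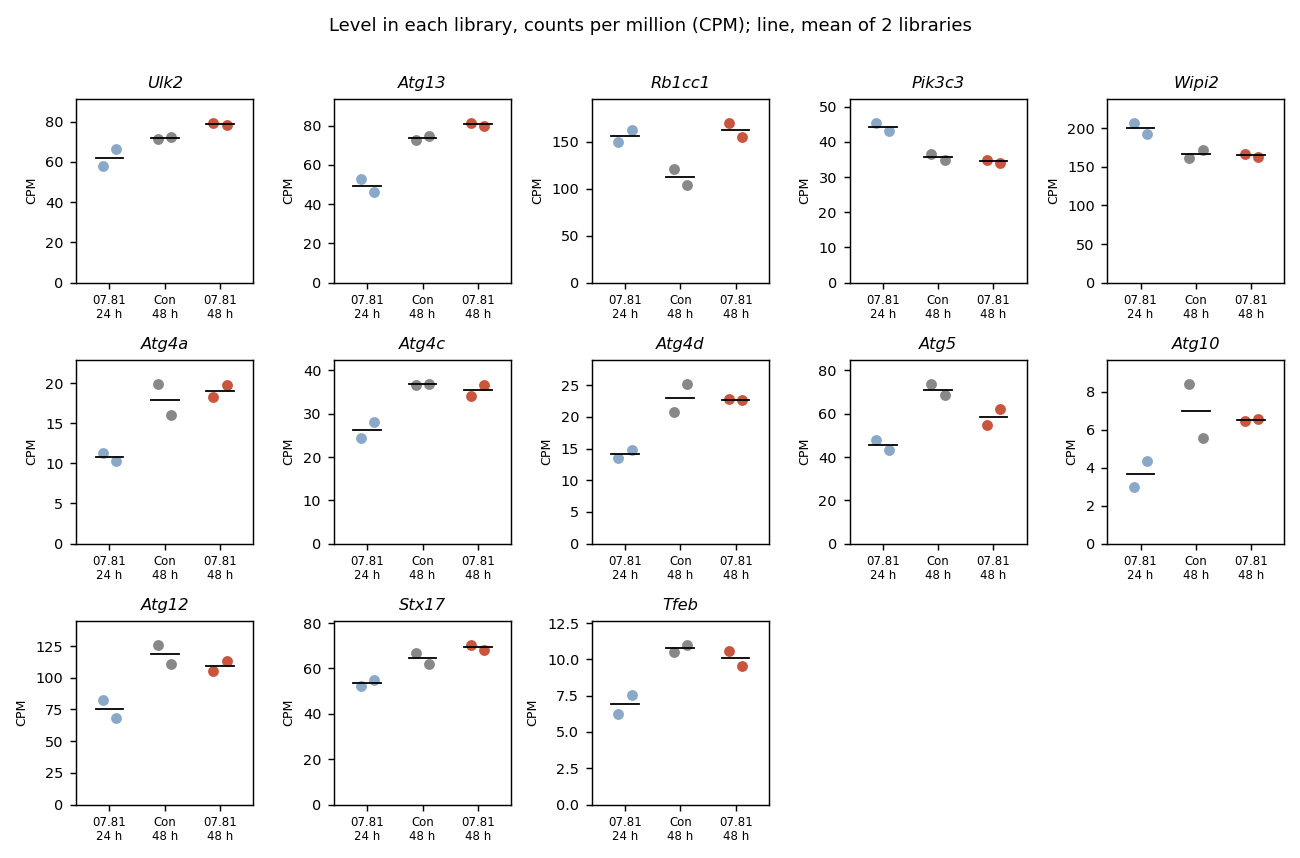
Level in CPM, on axes starting at 0, of the 13 genes called in either comparison, in each library of the 3 groups; points are libraries and lines the means of 2. For all 10 genes called higher at 48 h than at 24 h the 24 h points are the lowest, which the call partly fixes. For *Rb1cc1* the sdAb-Con (48 h) points are the lowest.

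sdAb#07.81 (24 h) and sdAb-Con (48 h) differ in both antibody and time, so their values were set side by side without a test. Mean levels in the order control antibody at 48 h, NUPR1 antibody at 48 h and NUPR1 antibody at 24 h were 73.8, 80.6 and 49.4 CPM for *Atg13*. They were 17.9, 19 and 10.8 CPM for *Atg4a* and 23, 22.7 and 14.2 CPM for *Atg4d*. They were 118, 109 and 75.3 CPM for *Atg12* and 10.7, 10.1 and 6.91 CPM for *Tfeb*. These 5 genes were named for their difference between the times, which fixes that the 24 h group lay apart from sdAb#07.81 (48 h). *Atg5*, also called between the times, had 71.2, 58.6 and 45.6 CPM. *Rb1cc1* had 112, 163 and 156 CPM.

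The other genes of the pathway were taken from 6 lists of 55 genes, of which 52 were tested. The other 3 were not, since *Sqstm1*, the cargo receptor p62, was among the 90 genes whose counts could not be solved, *Prkaa2* was under the count minimum and *Tfec* was not listed. Against sdAb-Con (48 h) 0 of the 52 were called, beside 9.89% of all genes tested. Their median log2 fold change was -0.08, beside -0.02 for all genes. Some of the 52 had an unadjusted p under 0.05 in limma's fit, a threshold at which all genes were not counted. Limma trend on log2(CPM + 1) called 1 of the 52, beside 10.8% of all genes. That gene was the folliculin partner *Fnip1*, which had 0.43 (limma adjusted p = 0.0539) in the voom fit. *Bnip3*, a hypoxia-induced receptor for mitochondria, had the largest value among the 52 at -0.50 (SE 0.166, limma adjusted p = 0.0618), its sdAb-Con (48 h) libraries being far apart at 270 and 166 CPM. Against 24 h 18 of the 52 were called, 13 higher and 5 lower, or 34.6% beside the 43.1% of all genes.

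The ATG8 family, whose proteins are the substrates of the conjugation step, had 4 of 5 genes called higher at 48 h than at 24 h, beside 21% of all genes called higher. *Map1lc3a* was at 6.82 and 6.65 CPM at 24 h and 14.6 and 18 CPM at 48 h, a log2 fold change of 1.26 (limma adjusted p = 5.09e-05). *Gabarapl1* had 0.91 (limma adjusted p = 4.31e-06) and *Gabarap* 0.87 (limma adjusted p = 2.81e-05). In sdAb-Con (48 h) these 3 genes stood at 18.6 and 19.8 CPM, 131 and 130 CPM, and 284 and 217 CPM, and all 5 genes of the family had a negative value of -0.33 to -0.08 against it, none called. With the length, GC and level trend removed these values lay between -0.14 and 0.15, 3 of them negative. Without library B of the 24 h group the same 4 genes were called against 24 h. Of the 8 cargo receptors tested *Calcoco1* had 0.87 (limma adjusted p = 8.12e-06) and *Nbr1* 0.32 (limma adjusted p = 0.0201), and 6 were not called. These 2 calls were 25% of the list, beside 43.1% of all genes. *Nbr1* lost its call when any of the 4 sdAb#07.81 libraries was left out (0.31, adjusted p = 0.0691 without library B of the 24 h group). *Bnip3l*, another receptor for mitochondria, had -0.30 (limma adjusted p = 0.0535) and was called in 7 of 13 alternative fits.

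Among tethers and SNARE partners 4 of 14 genes were called higher and 2 lower against 24 h, or 42.9% beside 43.1% of all genes. *Snap23*, a SNAP25 relative, had the largest value at 1.05 (limma adjusted p = 4.08e-06), from 43.4 and 43.2 CPM to 89.3 and 89.9 CPM, and the endosomal SNARE *Stx7* had 0.80 (limma adjusted p = 1.8e-05). *Vps33a*, a subunit of the HOPS tether that acts with STX17, was lower at -0.80 (limma adjusted p = 0.000101), from 55.4 and 47.8 CPM to 29.2 and 29.9 CPM. Of the 17 inputs from mTORC1, AMPK and the Rag GTPases 3 were called higher and 3 lower, or 35.3% beside the same 43.1%. The AMPK subunit *Prkag2* had 0.56 (limma adjusted p = 0.00236) and *Flcn*, the folliculin that lets mTORC1 hold TFEB in the cytoplasm, 0.42 (limma adjusted p = 0.0148), while the AMPK subunit *Prkag1* had -0.42 (limma adjusted p = 0.0274). Without library B of the 24 h group *Flcn* (0.31, adjusted p = 0.106), *Fnip1* and *Tsc2* were not called, and the split became 1 higher (*Prkag2*) and 4 lower (*Prkag1*, *Tsc1*, *Prkaa1* and *Rraga*). The 6 calls fell to 1 (*Prkag2*) without library B and to 3 without library A of sdAb#07.81 (48 h), and to 2 without the filter on counts. With the trend removed they were 4 higher (*Flcn*, *Fnip1*, *Prkab2* and *Prkag2*) and 1 lower (*Prkag1*), so the split between directions depends on the setting. None of the 7 class III PI3K regulators was called by limma, beside 43.1% of all genes, and their values lay between -0.22 and 0.27. None had an unadjusted p under 0.05, and none was called with limma trend, which called 43.6% of all genes. *Bcl2* and *Nrbf2* were called without library A of the 24 h group, and *Mtmr3* with the length, GC and level trend removed (0.27, limma adjusted p = 0.0466). *Mitf*, the relative of *Tfeb* that was tested, had 0.15 (limma adjusted p = 0.475).

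**Figure D5:**
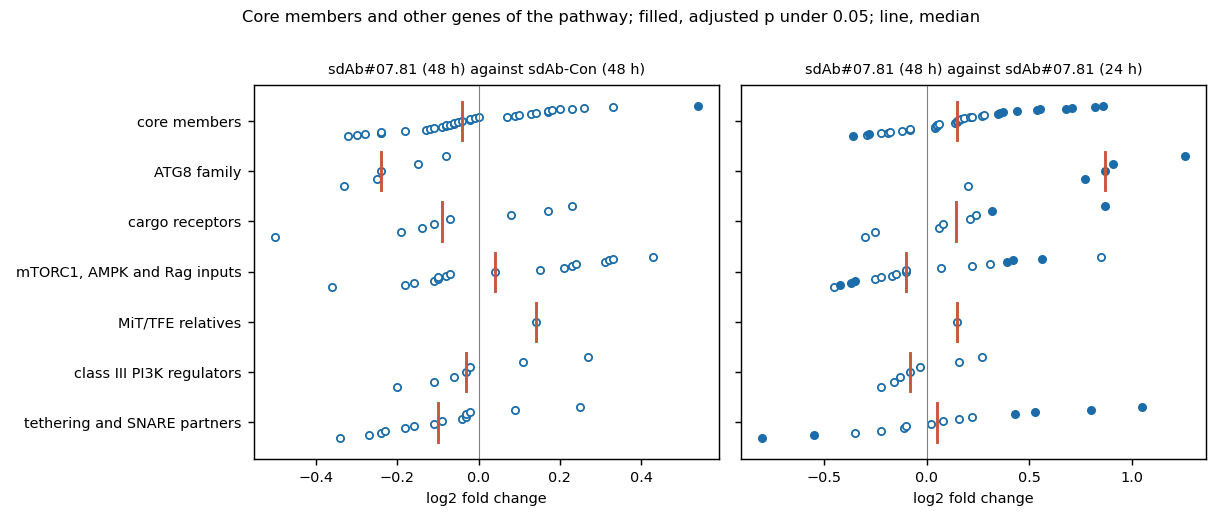
Log2 fold change of the 35 core genes and of the other genes of the pathway by list, in both comparisons; filled points have an adjusted p under 0.05 and red lines are medians. On the left the other lists hold no filled point; on the right the ATG8 family lies highest, with a median of 0.87 beside 0.15 for the core genes.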

How the data were processed

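RNA was sequenced from 8 samples of 4T1 cells in 4 groups of 2. Per the labels the submitters' processing notes name cutadapt 1.9.1, HISAT2 2.0.1 and HTSeq 0.6.1, and GRCh38.p14, a human build, although the identifiers are of mouse genes; the build used for the mouse genes is not given in the sources used here. The authors deposited 2 tables, sdAb#07.81 (48 h) with sdAb-Con (48 h) and with sdAb#07.81 (24 h). Their columns of fold changes, standard errors, statistics and p-values hold the authors' own comparisons and were not used. The remaining deposited signal is a mean over 4 libraries of counts divided by size factors.

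This mean is a sum of whole counts with 4 fixed weights. Genes with a single read gave the weights, and the counts of the 6 libraries were solved from the 2 means of each gene (28622 of 28712 genes). The 90 unsolved genes had means of at least 16267 and held 20.8% and 17.3% of the summed means, so CPM is relative to the solved genes. Of 3181 genes with a mean of 10 to 100 solved from each table alone, 3181 gave equal counts for the shared libraries; of the members, this range covers *Atg10* alone. Of the libraries in a table, 2 shared their single-read genes with the other table, and were taken as sdAb#07.81 (48 h), the one group both tables name; the others follow from the groups each table compares. "Nab" in a table's name was read as sdAb-Con. The counts used are thus inferred from the deposited means.

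The solved counts were scaled by the median of ratios and tested with limma 3.58.1 (voom, R 4.3.3) for genes with a mean count of at least 10. The 3 groups were in a single fit, so that they share an estimate of the spread. The recovery and the test were checked on simulated data. Lengths and GC content came from GENCODE M21 (98.8% of tested genes). Alternatives were total count and upper quartile scaling, no filter, a mean count of at least 100, limma trend on log2(CPM + 1), the 4 libraries of a comparison alone, each library left out, and removal of the length, GC and level trend (a cubic fit, degree 3). Per-library values and full statistics were given for members called in the first comparison and for those called with an absolute log2 fold change of at least 0.5 in the second, at most 4 a step; of other lists at most 3 called genes were named by size. Library values of smaller calls, *Becn1* and *Tfe3*, and other genes named as lost or gained in an alternative, and the values of *Bnip3*, *Fnip1* and *Mitf*, were chosen after they were seen. Whether reads were counted by strand is not given in the sources used here. Members and lists were chosen with earlier results of these data known.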

Additional observations from a re-analysis of the deposited data

How the results depend on the processing

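No paired analysis was possible because the recovered libraries carry no replicate numbers of the labels. Against sdAb-Con (48 h), *Rb1cc1* was the 1 member called in every fit except 3. With the length, GC and level trend removed 0 members were called, and 0 to 1 when each library was left out, 0 without library B of sdAb-Con (48 h) or library A of sdAb#07.81 (48 h). All genes called numbered 1372, 555 without the filter, 2117 with the 4 libraries alone and 254 with the trend removed, and 213 to 2122 when each library was left out. Against 24 h the 12 members called became 5 of 35 without the filter, where more genes were tested and 17.7% of them were called. With a library left out fewer members were called in every fit, and their median log2 fold change lay between 0.11 and 0.17. The members called numbered 11 to 14 with the other settings, beside 41.1% to 49% of all genes tested. *Atg12*, *Atg13*, *Atg4a* and *Atg4d* were called in all 13 alternatives, and no called member changed sign in any. *Wipi2* was called in 4 of 13. All genes called against 24 h numbered 5976, 5076 without the filter and 4308 to 5728 when each library was left out. A group left with 1 library was assumed to vary like the others. The cause of each change was otherwise not tested. With 2 libraries a group, the median SE of 0.153 sets the size of change that could be seen.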
